A study of Sus scrofa with 2 samples.

Results

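The cells described here were 694 pig invariant natural killer T (iNKT) thymocytes with transcripts of CD8A and none of CD8B or CD4. They made up 6.16% (95% exact interval 5.72 to 6.62) of the 11273 iNKT cells kept. Each was chosen by its unique molecular identifiers (UMIs), the tags that count a captured transcript once: at least 1 UMI of CD8A and 0 of CD8B and of CD4. They were set against co-receptor-negative iNKT thymocytes of the same library, which had 0 UMIs of all 3 genes. There were 10511 such cells, and 1388 of them, 2 per CD8A-positive cell, were drawn to have the nearest total UMIs. Another 68 iNKT cells had a CD8B or CD4 UMI and entered neither group. Both groups came from the thymi of 2 untreated pigs of mixed breed at 22 weeks of age, with iNKT cells enriched on magnetic beads, sorted as live cells and combined across the pigs before 1 droplet library was made. The second library of the series, total thymocytes of the same thymi with 8026 cells kept, served as background.

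Invariant natural killer T cells are T cells with a nearly fixed receptor that recognises lipids on CD1d, and their development needs the transcription factor PLZF, encoded by ZBTB16. CD8 is a co-receptor built as a dimer. Conventional cytotoxic T cells carry a pair of CD8 alpha, from CD8A, and CD8 beta, from CD8B, whereas a homodimer of CD8 alpha needs CD8A alone. Pig iNKT cells with CD8 alpha and without CD8 beta are known, and the comparison asks which other transcripts go with CD8A in them.

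The pigs cannot be told apart within the library, so there is 1 sample per group and no test. Every interval covers counting error only, and UMIs of one cell are not independent of each other. The iNKT library held 54457966 UMIs over 12097 barcodes, and the kept cells had a median of 4210 UMIs. The total thymocyte library held 29723207 UMIs over 9112 barcodes. CD8A-positive and matched cells each had a median of 4180.5 UMIs, with 1488.5 and 1501.5 genes, and the widest gap of a drawn cell was 1.02% of its partner's total. The 2 libraries shared 41 barcodes, 5 of them among CD8A-positive and 4 among matched cells. Doublet calling failed, with 1 cell called of 11273. Among the 8% of cells with the highest doublet scores were 11.1% of CD8A-positive and 8.57% of matched cells.

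Most CD8A-positive cells sat at the lower edge of the rule. Of the 694 cells, 591 had 1 CD8A UMI, 82 had 2, 16 had 3, 3 had 4 and 2 had 5. The cells just outside it, with 0 CD8A UMIs, were the 10511 co-receptor-negative cells. At the cell filter, the CD8A-positive cell with the fewest genes had 649, and 4 CD8A-only barcodes with under 500 genes were left out, the nearest with 474. The CD8A-positive cell with the most mitochondrial UMIs had 9.61%, and 20 CD8A-only barcodes above 10% were left out, the nearest with 10.8%.

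The co-receptor transcripts of the library were nearly all CD8A. The iNKT cells held 835 CD8A UMIs, 23 of CD8B and 57 of CD4, which is 36.3 CD8A UMIs per CD8B UMI. Total thymocytes held 7181 CD8A and 14054 CD8B UMIs, or 0.511 CD8A per CD8B. Of the 699 iNKT cells with a CD8A UMI, 3 also had CD8B, 3 also had CD4, and 5 were left out for either. Whether CD8 alpha was paired with itself was not measured, since these are transcripts. In CPM, the UMIs of a gene scaled to the same total in every group of cells, the level of CD8A was 15.7 CPM in iNKT cells and 251 CPM in total thymocytes.

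A single UMI can come from free RNA in a droplet, so the share was set beside cells that should lack CD8A. In total thymocytes, cluster 2, with the progenitor genes KIT and HOXA9 among its leading genes, had a CD8A UMI in 8% of 225 cells (4.81 to 12.3) at a median of 8204 UMIs. Cluster 13 there, with the B cell genes PAX5 and MS4A1, had one in 14.3% of 42 cells (5.43 to 28.5) at 3765 UMIs. Most of those cells also had a CD8B or CD4 UMI. By the rule used here, CD8A-only cells were 0.889% (0.108 to 3.17) of cluster 2 and 2.38% (0.0603 to 12.6) of cluster 13. These shares give no floor for the iNKT library, where few CD8B and CD4 UMIs could take a cell out of the rule. CD8B and CD4 stood at 492 and 144 CPM in total thymocytes and at 0.432 and 1.07 CPM in iNKT cells. In the iNKT library itself, 0 of the 44 cells with a UMI of the B cell receptor gene CD79B were CD8A-positive, an interval that runs to 8.04% and holds the share of all iNKT cells. The share of CD8A-positive cells had no steady order with depth. With the cells in 5 equal sets by total UMIs, shallowest first, it was 6.57%, 6.31%, 5.62%, 4.61% and 7.67%, while CD8A stood at 31.9, 20.9, 15.4, 10.5 and 11.9 CPM. With each cell thinned to 2000 UMIs and 308 shallower cells left out, 3.06% (2.75 to 3.404) were CD8A-only. The source of the single CD8A UMIs was not tested.

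CD8A-positive cells were gathered in 2 small clusters of iNKT cells and thin in the other 10. Clusters were built without the co-receptor, mitochondrial and ribosomal protein genes, so CD8A had no part in forming them. Cluster 11 held 32 cells, of which 25 were CD8A-positive, a share of 78.1% (60.03 to 90.7). Cluster 9 held 116 cells, of which 23 were CD8A-positive, 19.8% (13 to 28.3). In the other 10 clusters the share ran between 2.80% and 8.21%. These held 646 of the 694 CD8A-positive cells, 93.1% of them, at 5.81% of their 11125 cells. The order was the same at equal depth: thinned to 2000 UMIs, 48.3% of cluster 11 and 11.9% of cluster 9 were CD8A-only, against 1.76% to 3.81% in the others. The split at 15% between the 2 rich clusters and the rest was set after the shares were seen. At a coarser resolution of 0.5, cluster 11 joined a larger cluster and the highest share of any cluster was 20%.

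**Figure D1:**
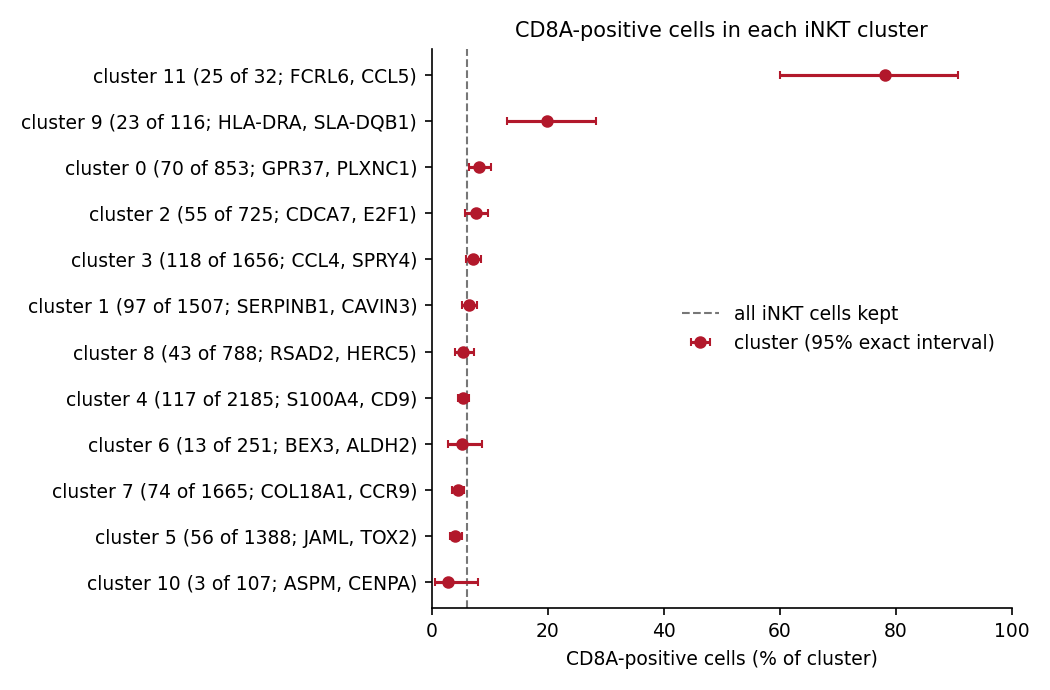
Share of CD8A-positive cells (x axis, % of the cluster) in each of the 12 iNKT clusters (y axis, with counts and 2 leading genes). Points are shares, bars are 95% exact intervals and the dashed line is the share over all iNKT cells, 6.16%. Cluster 11 stands at 78.1% and cluster 9 at 19.8%, and the other clusters lie at or below 8.21%.

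Cluster 11 looked little like the rest of the iNKT library. Its 10 leading genes were FCRL6, CCL5, KLRK1, FSCN1, GZMM, ADGRG1, CD244, ZNF683, XCL1 and CD96. CCL5 and XCL1 are chemokines of cytotoxic lymphocytes, KLRK1 encodes the activating receptor NKG2D, GZMM a granzyme, and ZNF683 the factor Hobit of resident lymphocytes in mouse and human. In its 25 CD8A-positive cells CCL5 stood at 3971 CPM, XCL1 at 3608 CPM and KLRK1 at 1032 CPM. CD3E, a subunit of the T cell receptor complex, had a UMI in all 25, at 2269 CPM. ZBTB16 was found in 1 of these 25 cells, 4% (0.101 to 20.4), with 1 UMI in all. TNFRSF4, which encodes OX40, was found in 16% and CD5, a receptor that marks strong receptor signals in thymus, in 24%. The defining iNKT transcript was thus almost absent from the cells where CD8A was densest, and receptor sequences, which would show whether they are iNKT cells, were not analysed here. Since these genes formed the cluster, their values describe it and test nothing. Against 50 depth-matched co-receptor-negative cells of the whole library, 18 of 271 genes were at least 1.5-fold higher, 6.64%, and 55 lower, 20.3%. CTSW, a protease of cytotoxic granules, stood at 2870 CPM in the 25 cells and 397 CPM in their matched cells, a ratio of 7.23 (5.53 to 9.56). CD247, the zeta chain of the receptor complex, had a ratio of 2.73 (2.10 to 3.56), and SATB1, a chromatin organiser of thymocytes, of 0.171 (0.0761 to 0.338). The 6 co-receptor-negative cells of cluster 11 had the same genes: CCL5 in 4 of 6, XCL1 in 6 of 6 and ZBTB16 in 1 of 6. None of the 25 was among the highest doublet scores.

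Cluster 9 had higher summed iNKT markers than cluster 11, but lower ones than the library at large. They summed to 613 CPM in the CD8A-positive cells of cluster 11 and to 1988 CPM in those of cluster 9. All iNKT cells had 2507 CPM, and the depth-matched co-receptor-negative cells drawn for cluster 9 had 2987 CPM. Among its leading genes were HLA-DRA, SLA-DQB1, CXCR3, TBX21, MEF2C, CD79B, SLAMF7, CXCR6 and MCOLN2. TBX21 encodes T-bet, the factor of type 1 lymphocytes, and CXCR3 and CXCR6 are chemokine receptors of such cells. Its 23 CD8A-positive cells had ZBTB16 in 52.2% (30.6 to 73.2), near the 55.5% of the cells matched to all CD8A-positive cells. Among its 91 co-receptor-negative cells the share was 30.8% (21.5 to 41.3). TNFRSF4 was found in 82.6% of the CD8A-positive and 45.1% of the co-receptor-negative cells. T-bet transcripts were found in 5 of 23 and 12 of 91 cells. XCL1 had a UMI in 6 of 23 and 15 of 91, GZMH, a granzyme gene, in 9 of 23 and 18 of 91, and KLRK1 in none of either. IL4, the type 2 cytokine of iNKT cells, had a UMI in 5 of 23 and in 5 of 91. Against 46 depth-matched co-receptor-negative cells of the whole library, 8 of 373 genes were at least 1.5-fold higher in the 23 cells, 2.14%, and 34 lower, 9.12%. CST7, a protease inhibitor of granules, had a ratio of 2.53 (1.76 to 3.64) and CTSW of 2.32 (1.80 to 2.98), while TNFRSF4 had a ratio of 0.689 (0.551 to 0.858), S100A4 of 0.439 (0.297 to 0.633), CD5 of 0.492 (0.345 to 0.687) and LEF1, a factor of immature T cells, of 0.414 (0.234 to 0.693). The co-receptor-negative side of the cluster also held B cell transcripts. All 10 B and plasma cell markers had UMIs there, at a summed 3730 CPM, against 3 of 10 and 221 CPM in the CD8A-positive cells. CD79B was found in 13 of the 91 co-receptor-negative cells and in 0 of the 23. The part of these B cell transcripts in differences within cluster 9 was not tested.

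Across all genes the CD8A-positive cells were close to their matched cells. With at least 100 UMIs over both groups, 6889 genes were compared by the ratio of their CPM, CD8A-positive over co-receptor-negative. At least 1.5-fold higher were 40 genes, 0.581% of those compared, and at least 1.5-fold lower were 77, 1.12%. The other 98.3% lay within 1.5-fold, and the median log2 ratio was −0.01. At least 2-fold higher were 7 genes and at least 2-fold lower 9. The calls lay mostly among genes with few UMIs: with a minimum of 400 UMIs, 2 genes were higher, XCL1 and the unnamed ENSSSCG00000036618, and 2 lower, INCA1 and SSX2IP. A second random draw of matched cells kept 30 of the 40 higher and 56 of the 77 lower genes.

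**Figure D2:**
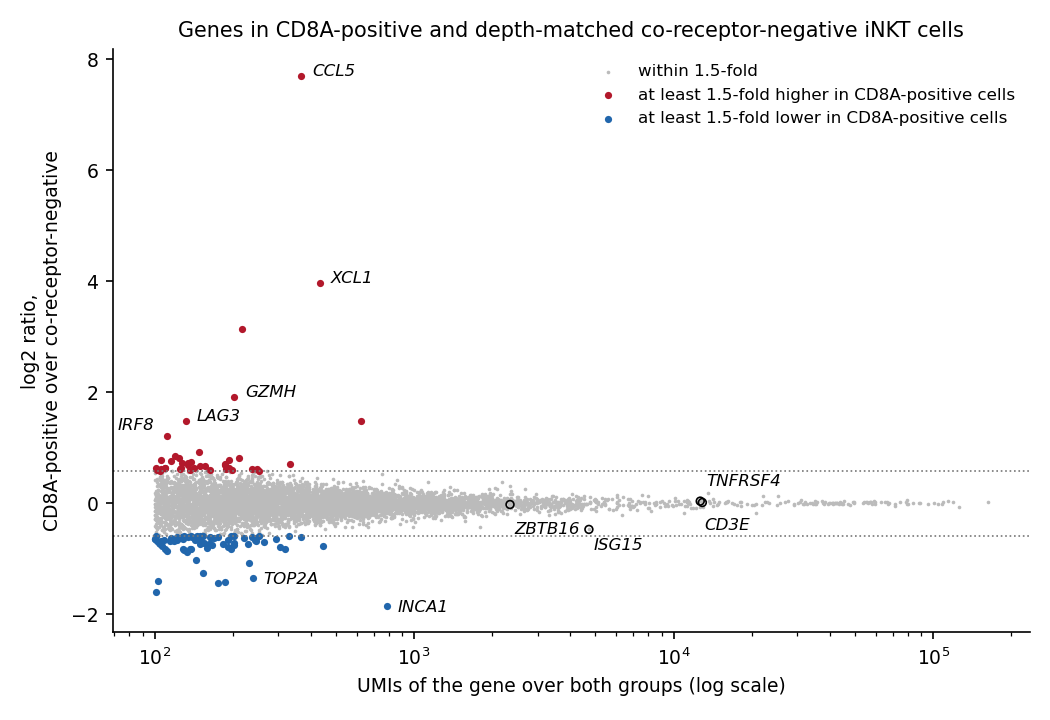
Log2 ratio of CPM, CD8A-positive over depth-matched co-receptor-negative iNKT cells (y axis), against the UMIs of the gene over both groups (x axis, log scale), for 6889 genes. Red points are at least 1.5-fold higher, blue points at least 1.5-fold lower, dotted lines mark 1.5-fold and open circles mark named genes within it. CCL5 and XCL1 stand far above the other genes, and the spread widens as UMIs become few.

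The highest ratios belonged to chemokine and cytotoxic genes. CCL5 had 365 UMIs in 23 CD8A-positive cells, against 3 UMIs in 3 matched cells, or 107 against 0.441 CPM, a ratio of 243 (82.6 to 1185). The size of this ratio hangs on the few matched cells with CCL5: its log2 value was 7.71 here, 4.45 with another random draw and 5.90 with all co-receptor-negative cells weighted to the same depth. It was 3.20 with cells of at most 5% mitochondrial UMIs. XCL1 had 386 UMIs in CD8A-positive and 49 in matched cells, at 113.5 and 7.21 CPM, a ratio of 15.8 (11.7 to 21.7). It was found in 4.76% of CD8A-positive cells and 0.720% of matched cells. KLRK1, named after its values were seen because it fell short of 100 UMIs, had 93 UMIs in CD8A-positive cells and 0 in the matched cells drawn. Its level was 27.4 CPM in CD8A-positive cells and 0.586 CPM over all 10511 co-receptor-negative cells. GZMH stood at 39.1 CPM in CD8A-positive cells and 10.3 CPM in matched cells, a ratio of 3.80 (2.82 to 5.15). These UMIs came from few cells. Each of the 4 genes had a UMI in at most 6.77% of CD8A-positive cells, so the ratios describe a small subset and not the group.

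LAG3 and IRF8 were also higher, in more places. LAG3, an inhibitory receptor that binds MHC class II, had 77 UMIs in CD8A-positive and 55 in matched cells, a ratio of 2.80 (1.96 to 4.03), and was found in 6.34% and 3.03% of cells. Its log2 ratio was 1.48, and 0.87 with cells of at most 5% mitochondrial UMIs. IRF8, a transcription factor of B and myeloid cells that activated T cells also use, had 60 and 52 UMIs, a ratio of 2.31 (1.57 to 3.41). IRF8 is the one gene of 13 usable myeloid and dendritic markers with 100 UMIs. CST3, a further one of these, had 18 and 13 UMIs, and LYZ, FLT3 and MS4A7 had 0 in both groups. The list summed to 26.8 CPM in CD8A-positive and 12.2 CPM in matched cells, and its part in the IRF8 difference was not tested. Genes without a symbol in the sources used here were also high. ENSSSCG00000023584 had a ratio of 8.90 (6.29 to 12.9), and 153 of its 178 UMIs in CD8A-positive cells lay in cluster 11. ENSSSCG00000036618 had a ratio of 2.80 (2.38 to 3.29), and 251 of its 365 UMIs lay in the 23 CD8A-positive cells of cluster 9. Both were named after their values were seen.

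The other genes at the top end differed by less than 2-fold and have no common role. PHLDA2, an imprinted growth-restricting gene in mouse placenta, had a ratio of 1.89 (1.35 to 2.65). GPD1, a glycerol phosphate dehydrogenase, had a ratio of 1.71 (1.28 to 2.29), but was found in 4.61% of CD8A-positive and 4.47% of matched cells. MLLT11 had a ratio of 1.64 in UMIs and the opposite order in cells, with 8.79% and 10.5%. ZNF326, EEA1, FADS3, USP33, P2RY10, GDE1 and LITAF had ratios between 1.53 and 1.81. EEA1 tethers early endosomes, P2RY10 is a lysophospholipid receptor and USP33 removes ubiquitin.

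CCL5, XCL1, KLRK1, GZMH and LAG3 were found in more cells where the cell had more CD8A UMIs. Some other cytotoxic and type 1 genes were lower in cells with 1 CD8A UMI than in their own matched cells. CTSW had a ratio of 0.882 (0.827 to 0.940) there, CCL4 of 0.738 (0.552 to 0.978) and ID2 of 0.906 (0.870 to 0.945). In cells with 2 or more CD8A UMIs their ratios were above 1, at 1.78, 2.40 and 1.19. NKG7 and CST7 had ratios of 1.19 and 1.06 with 1 CD8A UMI, and of 2.69 and 1.65 with 2 or more. SRGN had no such rise, with 1.14 and 1.09. From cells with 0 through 1 and 2 to 3 or more CD8A UMIs, CCL5 was found in 0.162%, 1.52%, 8.54% and 33.3% of cells. XCL1 was found in 0.714%, 2.88%, 10.98% and 33.3%, and KLRK1 in 0.105%, 1.52%, 8.54% and 23.8%. These shares were higher at each step, though the last group had 21 cells and its interval for CCL5, 14.6% to 57.0%, met that of cells with 2 UMIs. GZMH was found in 2.61%, 5.08%, 15.9% and 19.0% of these cells, and LAG3 in 2.89%, 6.09%, 7.32% and 9.52%. The last step of GZMH and the last 2 steps of LAG3 were small for groups of 82 and 21 cells. ZBTB16 stayed level at 55.5%, 53.6%, 54.9% and 52.4%. Median depth was 4210, 4083, 4570 and 4690 UMIs. Seen the other way, 42 iNKT cells in all had a CCL5 UMI, and 23 of them, 54.8% (38.7 to 70.2), were CD8A-positive, as were 21 of the 34 cells with KLRK1.

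**Figure D3:**
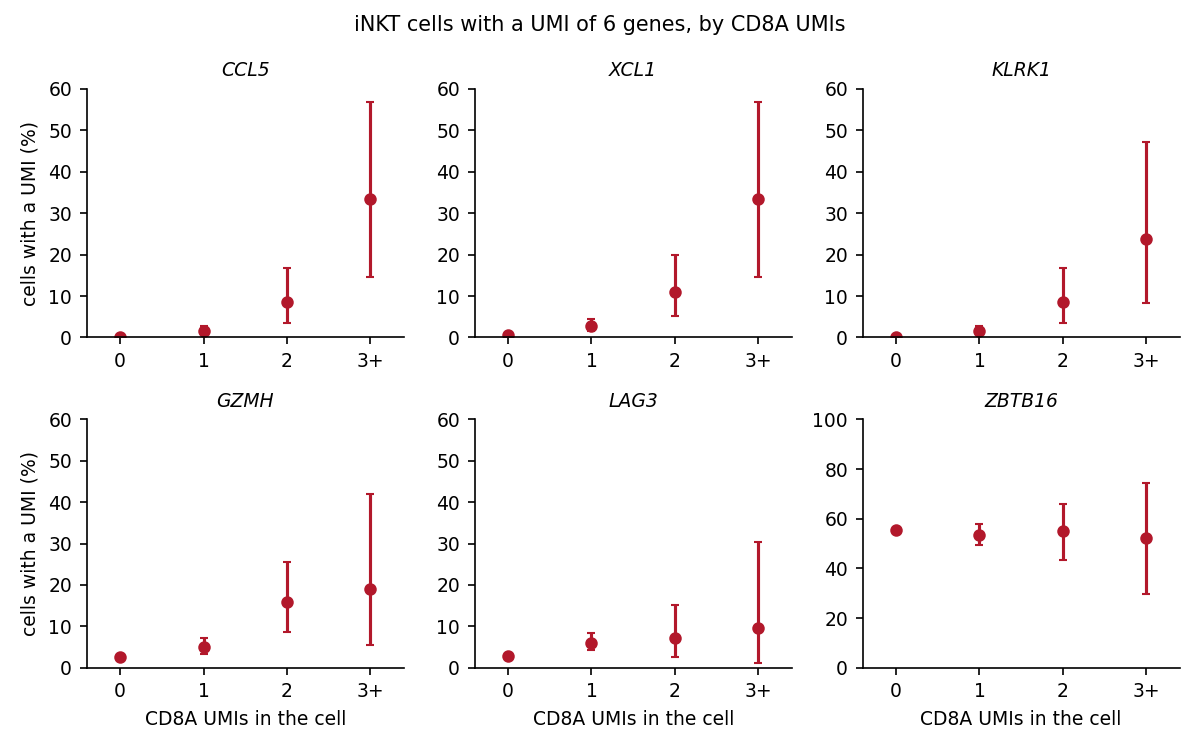
Share of iNKT cells with at least 1 UMI of 6 genes (y axis, %), by the number of CD8A UMIs in the cell (x axis, 10511, 591, 82 and 21 cells). Points are shares and bars 95% exact intervals. CCL5 stands at 33.3% in cells with 3 or more CD8A UMIs and 0.162% in cells with none, whereas ZBTB16 lies between 52.4% and 55.5% throughout.

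The CCL5, XCL1 and KLRK1 UMIs of CD8A-positive cells lay mostly in the 2 rich clusters. Among the 646 CD8A-positive cells of the other clusters, CCL5 had 3 UMIs, all in 1 cell, XCL1 had 14 and KLRK1 had 2. Against their own 1292 depth-matched cells of the same 10 clusters, XCL1 had an even ratio (0.487 to 1.96), GZMH had a ratio of 1.21 (0.713 to 2.01) and CCL5 had 3 UMIs against 2. In the 25 CD8A-positive cells of cluster 11 there were 7.61 CCL5 UMIs per CD8A UMI, from 350 and 46 UMIs, against 0.00405 in the CD8A-positive cells of the other clusters, from 3 and 741 UMIs. CCL5, XCL1 and KLRK1 were leading genes of cluster 11, so their scarcity elsewhere was in part set by the clustering and tests nothing. CXCR3, high in clusters 11 and 9, was found in 40% and 43.5% of their CD8A-positive cells and in 0.155% of those elsewhere.

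**Figure D4:**
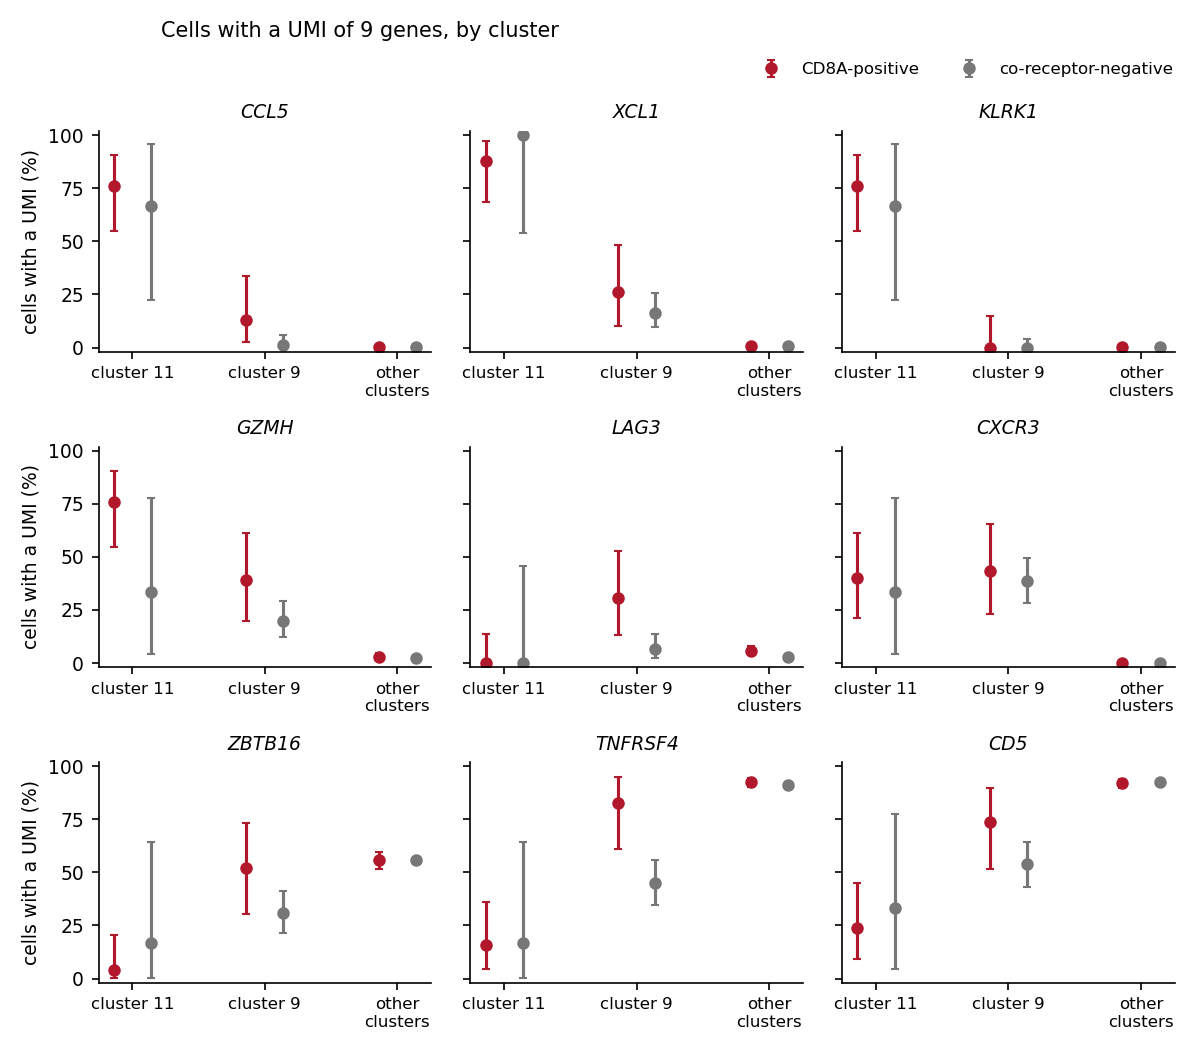
Share of cells with at least 1 UMI of 9 genes (y axis, %) in cluster 11, cluster 9 and the other 10 clusters (x axis), for CD8A-positive cells (red, 25, 23 and 646 cells) and co-receptor-negative cells (grey, 6, 91 and 10414 cells). Bars are 95% exact intervals. ZBTB16 is found in 4% of CD8A-positive cells of cluster 11, 52.2% of those of cluster 9 and 55.7% of those elsewhere.

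Outside the 2 rich clusters, CD8A-positive cells had the iNKT profile of their neighbours. ZBTB16 stood at 233.5 CPM in CD8A-positive and 233.2 CPM in matched cells there, an even ratio (0.916 to 1.09). It was found in 55.7% of these CD8A-positive cells and in 55.7% of the 10414 co-receptor-negative cells. Of 6748 genes compared there, 29 were at least 1.5-fold higher, 0.43%, and 55 lower, 0.815%. LAG3, which with 93 UMIs was short of the minimum there, had a ratio of 2.77 (1.80 to 4.29), with a UMI in 5.73% of CD8A-positive and 2.86% of all co-receptor-negative cells. IRF8, also short of the minimum there, had a ratio of 1.66 (1.06 to 2.59). PRF1, which encodes the pore protein perforin, had a ratio of 1.46 (1.11 to 1.92). CD96, an adhesion receptor of NK and T cells, had 15 UMIs against 1, but in 2 cells. SATB1 was slightly lower, with a ratio of 0.891 (0.843 to 0.941).

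ZBTB16 and the type 2 genes were near even over all 694 cells, and the type 1 factor TBX21 was higher on few UMIs. ZBTB16 had 772 UMIs in CD8A-positive and 1570 in matched cells, a ratio of 0.983 (0.901 to 1.07). GATA3, the factor of type 2 cells, had a ratio of 1.102 (0.994 to 1.22), and IL4 of 1.03 (0.794 to 1.32), with a UMI in 11.8% of CD8A-positive and 10.1% of matched cells. TBX21 had 10 UMIs in CD8A-positive and 3 in matched cells, a ratio of 6.67 (1.72 to 37.7), and EOMES, its relative, 4 and 1, a ratio of 8 (0.792 to 394). All 10 UMIs of TBX21 lay in clusters 11 and 9. IL17A, of type 17 cells, and IFNG had 0 UMIs in both groups, which allows up to 0.882 CPM in CD8A-positive and 0.441 CPM in matched cells. Of the factors that set CD8 and CD4 fate, RUNX3 had a ratio of 1.23 (0.952 to 1.59), RUNX1 of 0.961 (0.778 to 1.18) and ZBTB7B, which encodes ThPOK, of 0.943 (0.784 to 1.13). RUNX3, which in mouse maintains CD8 transcription, had a ratio of 0.975 (0.732 to 1.29) outside the 2 rich clusters. TNFRSF4 had a ratio of 1.01, IL2RB, the beta chain of the IL-2 and IL-15 receptor, of 1.095 and CD44, an activation and homing receptor, of 0.943. PDCD1, which encodes PD-1, had a ratio of 1.14 (1.01 to 1.30), and CD69, an early activation marker, of 1.15 (1.01 to 1.31). CD5 at 0.921, S100A4 at 0.925 and KLF2, the factor of thymic exit, at 0.933 were a little lower, with intervals below 1. CCR7, a homing receptor, and S1PR1, a target of KLF2 that drives exit, had ratios of 0.968 and 0.929, with intervals that hold 1.

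Of the 9 compared cytotoxic granule genes, 1 was at least 1.5-fold higher, GZMH, and none lower. Over all genes compared, 0.581% were at least 1.5-fold higher and 1.12% lower. The median log2 ratio was 0.20, against −0.01 over all genes. NKG7, a granule membrane protein, had a ratio of 1.43 (1.12 to 1.82), PRF1 of 1.41 (1.09 to 1.82), SRGN, the granule proteoglycan, of 1.13 and CST7 of 1.16. Of 6 type 1 genes, CCL5 and XCL1 were higher and none lower, at a median of 0.21. CCL4 there had a ratio of 1.22 (0.998 to 1.496) and ID2 of 0.951. Of 16 agonist selection and exhaustion receptors, LAG3 was higher and none lower, at a median of 0.11. Of 8 NK-type and SLAM receptors with 100 UMIs, none passed 1.5-fold in either direction, at a median of 0.13. Another 5 of that list had too few UMIs for the comparison and higher levels in CD8A-positive cells: KLRK1, CD96, FCER1G, SLAMF7 and CD244, the last with 8 UMIs against 1. Cluster 11 held 91 of the 93 KLRK1, 13 of the 28 CD96, 14 of the 18 FCER1G and all 8 CD244 UMIs of CD8A-positive cells. Of 9 SLAMF7 UMIs, 4 lay in cluster 11 and 5 in cluster 9. Outside these clusters the log2 ratios of CD244 and FCER1G were −0.58 and −0.84. NCR1, KLRD1 and KLRB1, receptors of NK cells, had 0 UMIs in both groups, as did GNLY, which encodes granulysin.

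Lists on T cell receptor signalling (23 genes), egress and homing (18), CD4 and CD8 lineage factors (17), cytokine receptors (15), immediate early and heat shock genes (14), glycolysis (13), S100 and effector memory genes (12), MHC genes (8) and type 2 genes (7) had 0 genes past 1.5-fold in either direction. Their medians ran between −0.07 and 0.08. Within them, CXCR4, a homing receptor of immature thymocytes, had a ratio of 1.34 (1.16 to 1.53) and LCP2, an adaptor of receptor signalling, of 1.24 (1.14 to 1.35). MYB, a factor of progenitor and early T cells, had a ratio of 1.49 (1.06 to 2.10), but its log2 ratio of 0.58 was −0.47 with cells of at most 5% mitochondrial UMIs. ETS1 had a ratio of 0.939. The 2 type 17 genes compared, BLK and RORA, had a median of 0.39 and the 12 survival and death genes one of −0.22, and 0 genes of these lists passed 1.5-fold either.

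**Figure D5:**
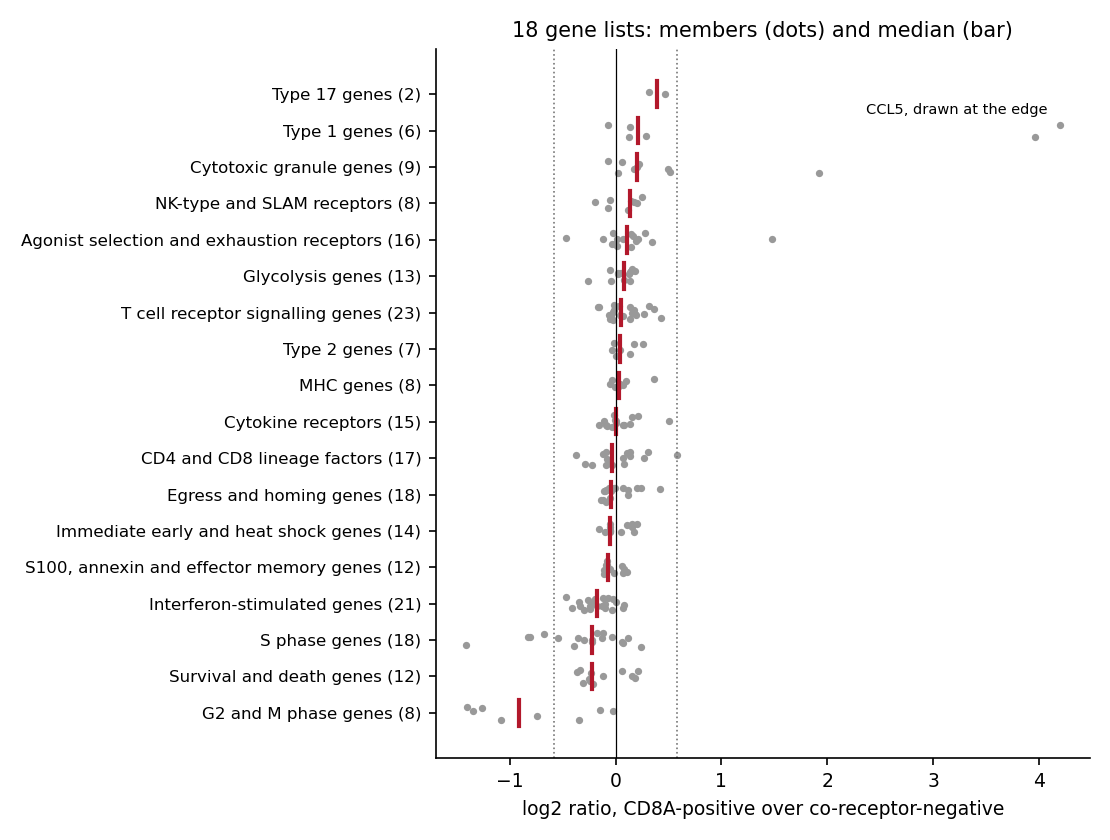
Log2 ratio of CPM, CD8A-positive over depth-matched co-receptor-negative iNKT cells (x axis), for the compared members of 18 gene lists (y axis, with the number of members). Grey dots are genes, red bars are medians and dotted lines mark 1.5-fold. CCL5 is drawn at the edge of the axis, and the median of G2 and M phase genes, −0.91, lies furthest from 0.

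Cell division genes were lower in CD8A-positive cells. Of 8 G2 and M phase genes compared, 5 were at least 1.5-fold lower and none higher, with a median log2 ratio of −0.91. Over all 6889 genes, 1.12% were at least 1.5-fold lower and 0.581% higher. TOP2A, which untangles DNA before mitosis, had 39 UMIs in CD8A-positive and 201 in matched cells, a ratio of 0.388 (0.268 to 0.549). The spindle gene TPX2 had a ratio of 0.368 (0.201 to 0.631), NUSAP1 of 0.409 (0.258 to 0.628) and the kinetochore gene CENPF of 0.468 (0.329 to 0.653). Of 18 S phase genes, 4 were lower and none higher, at a median of −0.22, with TK1, thymidine kinase, at 0.369 (0.240 to 0.552) and PCLAF, a partner of the replication clamp, at 0.562. These differences were carried by few cells. CD8A-positive cells held 3 cells of cluster 10, led by the mitosis genes ASPM, CENPA and UBE2C, against 18 among the 1388 matched cells, or 0.432% and 1.30%. Cells with UMIs of at least 3 division genes were 29.3% and 30.4%. Without such cells the median of G2 and M phase genes was 0.28, and TK1, PCLAF, NUSAP1, CENPF and ATAD2 had ratios above 1. Since these cells were defined by UMIs of the same genes, leaving them out changes the ratios by construction and says nothing of the cause. The median stayed below 0 with another random draw, at −0.62, and with all co-receptor-negative cells weighted to the same depth, at −0.997. It lay near 0 with cells thinned to 2000 UMIs, at −0.03, and was −0.15 without the 8% of cells with the highest doublet scores, where TOP2A was at −0.30.

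INCA1, an inhibitor of cyclin-dependent kinase, had the lowest ratio of the 3165 genes with at least 400 UMIs, at 0.276 (0.220 to 0.342). Its 95 UMIs lay in 15 CD8A-positive cells and its 689 UMIs in 41 matched cells, 2.16% and 2.95% of cells, so the gap lay in UMIs per positive cell. Its log2 ratio was −1.85, and −0.91 with 1 matched cell for each CD8A-positive cell. H2AC11, a histone gene, had a ratio of 0.365 (0.233 to 0.553). SSX2IP, a centrosome protein, had a ratio of 0.586 (0.464 to 0.733) and, unlike INCA1, was spread over cells, with a UMI in 11.96% of CD8A-positive and 20.2% of matched cells. ATAD2, HAUS1, VPS39 and STMN3 had ratios between 0.558 and 0.611. HAUS1 belongs to the spindle, VPS39 to the fusion of lysosomes.

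Interferon-stimulated genes leaned slightly lower. Of 21 compared, 18 had ratios below 1 and 8 of them intervals below 1, but 0 passed 1.5-fold, at a median of −0.17. Over all 6889 genes, 51.6% had ratios below 1 and 4.56% intervals below 1. ISG15, an antiviral ubiquitin-like protein, stood at 367 CPM in CD8A-positive and 510 CPM in matched cells, a ratio of 0.721 (0.675 to 0.769), with a UMI in 48.4% and 52.2% of cells. RSAD2 had a ratio of 0.748, IFIT1 of 0.789 and IFI6 of 0.888. The interferon-responding cluster 8, led by RSAD2, HERC5 and ISG15, held 43 CD8A-positive cells and 112 matched cells, 6.20% and 8.07% of their groups.

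Markers of double-positive thymocytes, NK cells and erythroid and stromal cells were low in both groups, whereas CD4 single-positive and regulatory T markers were not. Conventional CD8 single-positive markers summed to 433.5 CPM in CD8A-positive and 162 CPM in matched cells, and 3 of 7 compared, CCL5, XCL1 and GZMH, were higher. Outside the 2 rich clusters this sum was 166 CPM in CD8A-positive and 161.5 CPM in all co-receptor-negative cells. CCL5, XCL1 and GZMH reached 100 UMIs only with the UMIs of CD8A-positive cells, so their calls test nothing. Over all genes compared, 0.581% were at least 1.5-fold higher. Double-positive thymocyte markers summed to 37.9 and 34.6 CPM, and 7 of 14 had 0 UMIs in both groups, among them RAG2, DNTT and CD1E. Gamma-delta T markers summed to 298 and 275 CPM, with TRDC at 0 in both, and NK cell markers to 6.76 and 1.91 CPM. B and plasma cell markers summed to 154 and 141 CPM, most of it CD79A, at 114 and 105 CPM, while CD79B, its partner, had 0 and 13 UMIs. Regulatory T markers summed to 753 and 666 CPM with FOXP3 at 0 in both, CD4 single-positive markers to 2554 and 2561 CPM, and erythroid and stromal markers to 11.5 and 5.15 CPM. Their part in the differences was not tested. The iNKT markers summed to 2510 and 2536 CPM. TNFRSF4, at 1272 and 1261 CPM, belongs both to these and to the CD4 single-positive markers.

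XCL1, CCL5, GZMH and LAG3 had higher ratios in cells with 2 or more CD8A UMIs than in cells with 1, though the intervals of CCL5 and LAG3 overlapped between the sets. Of the 40 higher and 77 lower genes, 3 and 1 were also called for cells with 2 or more. But 2127 genes reached 100 UMIs there, against 6889 over all 694 cells, so a gene could go uncalled for want of UMIs. GZMH, with 73 and 2 UMIs, and LAG3, with 27 and 10, went uncalled in this way. Each set was compared with its own matched cells. For the 103 cells with 2 or more, XCL1 had 238 UMIs against 0 and CCL5 207 against 1. GZMH had a ratio of 73.0 (19.5 to 614), CTSW of 1.78 (1.56 to 2.02), CST7 of 1.65 (1.37 to 1.996) and CCL4 of 2.40 (1.75 to 3.31). For the 591 cells with 1 CD8A UMI the ratios were 1.74 for GZMH, 0.882 for CTSW, 1.06 for CST7 and 0.738 for CCL4. CCL5 there had 158 UMIs against 2 and XCL1 148 against 60. LAG3 had ratios of 5.40 in cells with 2 or more UMIs and 2.27 in cells with 1. Past 1.5-fold higher were 30 of 2127 genes, 1.41%, for cells with 2 or more and 42 of 6471, 0.649%, for cells with 1. Past 1.5-fold lower were 63, 2.96%, and 55, 0.85%. Of the 103 cells, 24 lay in clusters 11 and 9, and of the 21 cells with 3 or more, 8 did.

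CD8A-only cells like those of cluster 11 were also in the total thymocyte library, where iNKT cells were not enriched. By the same rule 489 total thymocytes were CD8A-only, and cluster 14, led by KLRK1, CCL5, CD244, GZMK and CXCR6, had the highest share, 38 of 93 cells or 40.9% (30.8 to 51.5). In these 38 cells XCL1 was found in 81.6% and KLRK1 in 84.2%, against 88% and 76% of the 25 CD8A-positive cells of cluster 11. ZBTB16 was found in 5.26% (0.644 to 17.7) of the 38, against 4% of the 25, and TNFRSF4 in 0 of the 38 and 4 of the 25. The 2 sets were not tested against each other. The rule leaves out cells with CD8B, and over all their cells the clusters differed in it. CD8B was found in 19 of the 93 cells of cluster 14, at 171 CPM, and in 1 of the 32 cells of cluster 11, at 8.73 CPM.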

How the data were processed

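Single cells of 2 thymocyte libraries, iNKT-enriched and total, were counted as UMIs per gene. The deposited count matrices came from Cell Ranger 3.1.0, per the file headers, and the submitters' processing notes name Cell Ranger 3.1 together with Seurat 3.1. The deposited list of 21301 genes gave 15520 usable symbols. Barcodes were dropped below 500 detected genes or above 10% UMIs of the 13 mitochondrial genes. Scrublet marked 1 of 11273 iNKT cells and 0 of 8026 total thymocytes, which is too few for a working caller, so doublets were not removed. The genome build was not given in the sources used here.

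Each CD8A-positive cell was given 2 co-receptor-negative cells of nearest total UMIs, drawn without replacement. UMIs were summed per group, scaled to the total and divided, CD8A-positive over co-receptor-negative, with an exact conditional binomial 95% interval. Log2 ratios had 0.5 UMIs added to both sums. Shares of cells have exact Clopper-Pearson 95% intervals. With 1 library per group a gene was counted as higher or lower at 1.5-fold, over genes with at least 100 UMIs in both groups together. A count of 0 was given a floor of 3 UMIs over the group. The ratio was tested on simulated counts. Clusters came from scanpy 1.11.5 and igraph 0.11.9 (Leiden, 2000 variable genes, 30 components, 15 neighbours, resolution 1), without co-receptor, mitochondrial and ribosomal protein genes. A leading gene of a cluster was found in at least 10% of its cells. TMM factors came from edgeR 4.0.16.

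Named genes are the 15 with the highest lower bound and the 15 with the lowest upper bound among usable symbols, 25 genes taken whatever their values, and up to 4 members of each of 18 pathway and 10 marker lists. GZMA and MKI67 of these had no usable symbol, and a few of the named genes are not reported here. KLRK1, CD96, CD244, SLAMF7, FCER1G, CXCR3, CTSW, CST7, CCL4, CD3E, CD247, LEF1, CD79A, CD79B, CST3 and other genes described within clusters were named after their values were seen. The members and lists were chosen with earlier results of these data known. Another 15 settings changed the CD8A threshold, the draw, the matching, the scaling, the weight of cells, depth, the gene and cell filters, doublets, dividing cells and cells with markers of other types. Another 2 were chosen after seeing the data: without the 2 richest clusters, and by shares of cells.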

Additional observations from a re-analysis of the deposited data

How the results depend on the processing

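Against 40 genes at least 1.5-fold higher and 77 lower, the counts were 188 and 318 with all co-receptor-negative cells and no matching, 17 and 44 with all of them weighted by total UMIs, 307 and 412 with a minimum of 20 UMIs, and 2 and 2 with a minimum of 400. The weighted comparison still called 14 of the 40 and 38 of the 77. Fewer of them were called with thinned cells (6 and 7), at most 5% mitochondrial UMIs (8 and 13), without cells with markers of other types (11 and 15) and without dividing cells (13 and 15). The lower count was 46 with 1 matched cell for each CD8A-positive cell and 38 with cells thinned to 2000 UMIs, and the higher count was 66 with equal weight per cell. Counts under the other alternatives stayed within 1.5 times, which does not mean the same genes. TMM factors called the same 40 and 77 genes. With at least 2 CD8A UMIs, 0.914% of iNKT cells were CD8A-positive, and the highest share in a cluster was 20% at resolution 0.5.

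Of the genes past 1.5-fold, some log2 ratios changed sign. With at least 2 CD8A UMIs they were −0.72 for GPD1, −0.12 for USP33, −0.40 for GDE1, 0.049 for CENPF and 0.26 for TPX2. Without dividing cells they were −0.017 for GPD1, 0.32 for ATAD2, 3.32 for PCLAF, 0.26 for CENPF, 0.72 for NUSAP1 and 0.9999 for TK1, with a median of 0.28 for G2 and M phase genes. By shares of cells, MLLT11 was at −0.25. The causes were not tested. Over all 117 named genes, most of them within 1.5-fold or with few UMIs, 96 of 1989 values under the alternatives had another sign than the reported one, in 45 genes. Without the 2 rich clusters these included CD244 at −0.58, HLA-DRA at −2.17 and FCER1G at −0.84.

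No paired analysis was possible because each group is a set of cells from 1 library. Both pigs were pooled, so differences between animals, and with them the spread between replicates, cannot be seen. Of the 694 CD8A-positive cells, 591 rest on 1 UMI, and CD8A in cells with none counted was not detectable at this depth. Genes with few UMIs or UMIs in few cells, such as CCL5, KLRK1 and INCA1, move most with the cells drawn.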
